A study of Mus musculus with 12 samples.

Results

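The genes described here are 10 genes of the nuclear envelope and of nuclear positioning, Syne1, Syne2, Sun1, Sun2, Lmna, Emd, Kif5b, Map7, Pcm1 and Dync1h1. They were taken by gene symbol from 23923 genes, with earlier results of these data known. RNA was measured in mouse tibialis anterior, a fast-twitch muscle of the lower leg. RNA-seq was performed on 12 mice aged 6 weeks, with 1 library per mouse. The study states that its experiments after the first histology used tissue from males only. The 6 controls were Myf6 cre/+; Smyd1 flox/+ and the 6 Smyd1 conditional knockouts (CKOs) were Myf6 cre/+; Smyd1 flox/-, all of the strain labelled C57BL6/J;129S1/SvImJ. According to the study's methods, every mouse also carried Rosa26 YFP/+, a reporter of Cre activity. Controls therefore shared the Cre driver and 1 floxed Smyd1 allele with the CKOs. Cre was expressed from the Myf6 gene, so recombination began in differentiated myofibers around birth. Cells that never expressed Myf6 kept their floxed Smyd1 allele intact. The other allele was null in every cell of the CKOs and wild-type in controls, so these cells also differed between the groups. SMYD1 is a lysine methyltransferase of striated muscle, and the myopathy that follows its loss includes fibers with centralized nuclei. Numbers of such nuclei were not analysed here for these mice, so how the RNA levels relate to nuclear position was not tested.

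In a mature myofiber, the nuclei lie under the sarcolemma, and they reach that position by moving along microtubules and being pressed outward between the myofibrils. The LINC complex couples the nucleus to the cytoskeleton. It consists of nesprins in the outer nuclear membrane, which bind SUN proteins of the inner membrane, which in turn contact the lamina. Kinesin-1 and cytoplasmic dynein pull on this link along microtubules that in muscle grow from the surface of the nucleus rather than from a centrosome. Mutations of SYNE1, LMNA or EMD cause muscular dystrophy in humans.

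Expression was deposited as FPKM, the number of sequenced fragments of a gene scaled to its transcript length and to the size of the library, so that levels can be compared between genes. Depth in reads is unknown. Relative depth, inferred from how finely the smallest FPKM values are spaced, spanned a 1.80-fold range over the libraries, and its median was 1.19 for controls and 1.24 for CKOs where control 1 is set to 1. Control 1 stood apart from the other controls. Its summed FPKM was 156610 against 110124 to 133316, its 9 fibroblast marker genes summed to 1027 FPKM against 277 to 367, and its 10 macrophage and leukocyte markers summed to 53.0 FPKM against 13.5 to 22.8. Myofiber markers summed to more than any other marker list in every library, at 22955 to 36665 FPKM. Ttn, the gene of the giant sarcomeric protein titin, was nevertheless listed at 0 in 8 of 12 libraries. In this bulk tissue, fewer cells of a type and less RNA per cell cannot be told apart.

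The targeted gene was examined first. Smyd1 ranged from 32.9 to 47.1 FPKM in controls (median 34.9) and from 27.8 to 39.9 FPKM in CKOs (median 33.5). The groups overlapped, and the log2 fold change was -0.13 (SE 0.116, limma adjusted P=0.545). After median-ratio scaling of the libraries, the log2 fold change was -0.32 (adjusted P=0.0797). These values count fragments over the whole gene and the excised segment is not given in the sources used here, so they do not check the genotype labels. By western blot, the study found no detectable SMYD1 protein in the tibialis anterior of CKOs.

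All 10 genes passed the expression filter, and none differed between CKOs and controls once P-values were adjusted over all 12695 genes tested. With limma (Benjamini-Hochberg), 2.02% of all genes were higher and 0.268% lower in CKOs at an adjusted P below 0.05, compared with 0 of the 10 genes in either direction. At an unadjusted P below 0.05, the cutoff used by the study, Sun1, Lmna, Kif5b and Dync1h1 were higher in CKOs and no gene of the 10 was lower. This 4 of 10 stood beside 18.1% of all genes higher and 1.76% lower by the same rule. The study's own test at that cutoff, DESeq on counts, gave similar numbers of genes higher and lower, unlike this fit. An exact permutation test over the 924 assignments of mice to groups also placed 4 of the 10 at P below 0.05 in the higher direction, beside 18.0% of all genes, and 0 in the lower direction, beside 1.66%. By this exact test no gene of the 12695 passed adjustment, and the smallest P it can give is 0.00216. For no gene of the 10 did all 6 CKOs lie above, or all below, the 6 controls. Over all genes, 2.23% lay entirely above and 0.189% entirely below.

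Most genes were shifted upward in CKOs on the deposited scale, which bears on every value here. Summed FPKM overlapped between the groups, at 110124 to 156610 in controls and 120041 to 138454 in CKOs. The median log2 fold change over all genes was 0.18, and 77.9% of genes were positive. The median over the 10 genes was 0.13, with 4 genes above the all-gene median and 6 below it. Median-ratio scaling, which divides each library by its median ratio to an average library, brought the all-gene median to 0.01 and the median of the 10 genes to -0.05. On that scale, 0 of the 10 passed an unadjusted P of 0.05 in either direction, beside 6.62% of all genes higher and 7.44% lower, and 0 passed an adjusted P of 0.05, beside 0.764% higher and 0.709% lower. A correction for transcript length and GC content gave 0 of the 10 higher (6.36% of all genes) and 1, Pcm1, lower (7.96%), and quantile normalization gave 1, Sun1, higher (6.38%). Both also recentre each library, with all-gene median log2 fold changes of -0.006 and -0.003. The part of length and GC content alone was not tested. Median-ratio scaling without control 1 gave 0 higher (8.66%) and 2, Pcm1 and Syne1, lower (9.03%). Among the alternatives run, calls at an adjusted P were made only when control 1 was left out of the deposited FPKM, which gave 2 of the 10 higher, Sun1 and Lmna (8.4% of all genes), or when libraries were weighted by their scatter, which gave 3, Sun1, Lmna and Kif5b (11.0%).

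**Figure D1:**
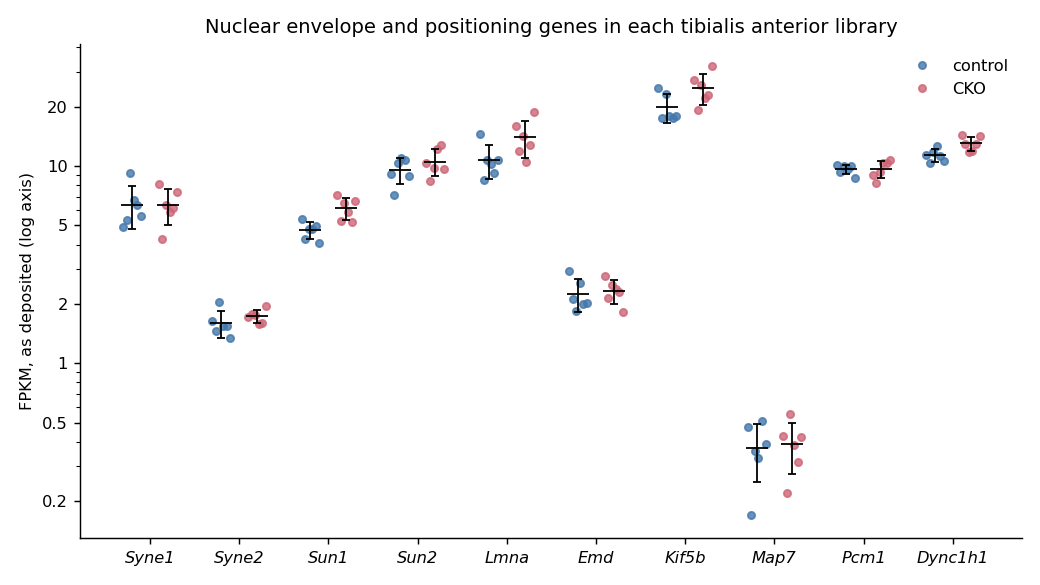
FPKM of the 10 genes (log axis) in each of the 12 tibialis anterior libraries, with control points in blue, CKO points in red, the group mean as a horizontal line and the SD as the error bar. Kif5b was the highest and Map7 the lowest gene in both groups, and the CKO and control points overlap for every gene.

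The order of levels was similar in both groups. In controls, Kif5b had the highest mean (19.9 ± 3.31 FPKM, SD, n = 6), and its lowest library exceeded the highest library of Dync1h1 (11.3 ± 0.816 FPKM). Dync1h1, Lmna (10.7 ± 2.11), Pcm1 (9.64 ± 0.537), Sun2 (9.53 ± 1.43), Syne1 (6.35 ± 1.54) and Sun1 (4.71 ± 0.465) followed, each with a range that overlapped its neighbor. Emd (2.25 ± 0.421) and Syne2 (1.59 ± 0.242) overlapped each other but not Sun1 above or Map7 (0.372 ± 0.121) below. In CKOs, Lmna (14.0 ± 2.99) moved ahead of Dync1h1 (13.0 ± 1.09) and Sun2 (10.5 ± 1.66) ahead of Pcm1 (9.66 ± 0.996), both pairs with overlapping ranges. Spread among control mice was smallest for Pcm1 (coefficient of variation 5.57%) and largest for Map7 (32.4%).

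The nesprins are giant spectrin-repeat proteins that reach from the nuclear surface into the cytoplasm. Syne1 encodes nesprin-1, the main nesprin of muscle nuclei, and Syne2 encodes nesprin-2. Syne1 ranged from 4.89 to 9.19 FPKM in controls (median 5.97) and from 4.26 to 8.13 FPKM in CKOs (median 6.22), so that 5 of 6 CKOs fell inside the control range. The fold was 1.0 (95% interval 0.781 to 1.28, limma adjusted P=0.999). Syne2 ranged from 1.34 to 2.04 FPKM in controls (median 1.54) and from 1.59 to 1.95 FPKM in CKOs (median 1.74). All 6 CKOs lay within the control range, although all were above its median, and the fold was 1.09 (0.909 to 1.31, adjusted P=0.588). Both genes yield many isoforms, and Syne1 transcripts in GENCODE M21 reach 27908 nt and start at 2726 nt for the shortest coding one. A gene-level FPKM cannot show a switch among them.

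SUN1 and SUN2 span the inner nuclear membrane and hold the nesprins in the space between the membranes. Among the 10 genes, Sun1 had the smallest P. Its control levels ran from 4.08 to 5.37 FPKM (median 4.81) and its CKO levels from 5.21 to 7.11 FPKM (median 6.19). Of the 6 CKOs, 4 exceeded every control, and 5 of 6 controls lay below every CKO, the exception being control 1. The fold was 1.28 (95% interval 1.09 to 1.51, limma P=0.00471, exact permutation P=0.00649), with an adjusted P of 0.0941. Leaving out any 1 library kept the unadjusted P below 0.05. Without control 1 the adjusted P was 0.0357. The fold was 1.13 after median-ratio scaling (0.990 to 1.29, adjusted P=0.396).

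Sun2 was present at about the level of Pcm1 and did not pass the test. It ranged from 7.17 to 11.0 FPKM in controls (median 9.72) and from 8.37 to 12.8 FPKM in CKOs (median 10.1). The fold was 1.10 (95% interval 0.913 to 1.33, adjusted P=0.546) and 0.970 after median-ratio scaling (0.806 to 1.17). The highest Sun2 levels among CKOs were in CKO 4 and CKO 5, which held intermediate and low Sun1 levels (5.87 and 5.21 FPKM).

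Lamins A and C, the intermediate filament proteins of the lamina, are both made from Lmna, and Emd encodes emerin, an inner membrane protein that binds them. Lmna ranged from 8.49 to 14.6 FPKM in controls (median 10.5) and from 10.5 to 18.8 FPKM in CKOs (median 13.5). All CKOs lay above the control median, but only CKO 1 and CKO 6 exceeded control 1, the highest control. The fold was 1.30 (95% interval 1.04 to 1.63, limma P=0.0223, exact permutation P=0.0476), with an adjusted P of 0.179. Without control 1 the fold was 1.39, with an adjusted P of 0.0432. The unadjusted call was lost without control 2, CKO 1 or CKO 6, and after median-ratio scaling (fold 1.15, adjusted P=0.499).

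Emd had one of the lowest levels of the 10 genes. Controls ranged from 1.83 to 2.95 FPKM (median 2.07) and CKOs from 1.81 to 2.78 FPKM (median 2.34). The fold was 1.03 and its 95% interval ran from 0.842 to 1.27 (adjusted P=0.866). CKO 6, which had the highest Lmna level of all mice, had the lowest Emd level of all mice.

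Kif5b encodes a heavy chain of kinesin-1, the motor that walks toward microtubule plus ends and moves and rotates nuclei in muscle cells. Controls ranged from 17.5 to 24.9 FPKM (median 17.9) and CKOs from 19.1 to 32.0 FPKM (median 24.4). The controls split into 4 mice near 18 FPKM and 2, controls 1 and 3, above 23 FPKM, while 3 CKOs exceeded all controls. The fold was 1.25 (95% interval 1.03 to 1.52, limma P=0.0299, exact permutation P=0.0498), with an adjusted P of 0.199. The unadjusted call was lost on leaving out control 2, 4, 5 or 6 or CKO 1, 3 or 6. It was also lost after median-ratio scaling (fold 1.10, adjusted P=0.61).

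Map7 encodes a microtubule-binding protein that recruits kinesin-1 to its track and to nuclei. Its transcript was scarce, from 0.169 to 0.507 FPKM in controls (median 0.374) and from 0.221 to 0.551 FPKM in CKOs (median 0.405). The interval of the fold was the widest of the 10 genes, from 0.741 to 1.47 around 1.04 (adjusted P=0.909).

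Dync1h1 encodes the heavy chain of cytoplasmic dynein, the motor that walks toward microtubule minus ends. Controls ranged from 10.4 to 12.7 FPKM (median 11.3) and CKOs from 11.8 to 14.3 FPKM (median 12.9). Control 4 was the only control above the lowest CKO, and 4 CKOs exceeded it. The fold was small at 1.15 (95% interval 1.0 to 1.31, limma P=0.0433, exact permutation P=0.013), with an adjusted P of 0.235. This was close to the shift of the median gene, and the fold was 1.01 after median-ratio scaling (0.890 to 1.14, adjusted P=0.975). The unadjusted limma call was lost without control 2, 5 or 6 or CKO 1, 2, 5 or 6.

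Pcm1 encodes a scaffold protein that moves from centriolar satellites to the nuclear envelope when myoblasts fuse, and it marks myonuclei. It was the steadiest of the 10 genes among controls, from 8.72 to 10.1 FPKM in controls (median 9.84) and from 8.17 to 10.7 FPKM in CKOs (median 9.83). The CKOs surrounded the controls, with 3 above all of them and 1 below. The fold was 0.998 (95% interval 0.871 to 1.14, adjusted P=0.992). After median-ratio scaling, which sets it against the other genes of the same libraries, the fold was 0.878 (0.769 to 1.0, adjusted P=0.36). The log2 fold change of -0.19 after correction for transcript length and GC content passed the unadjusted cutoff, with an adjusted P of 0.285.

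**Figure D2:**
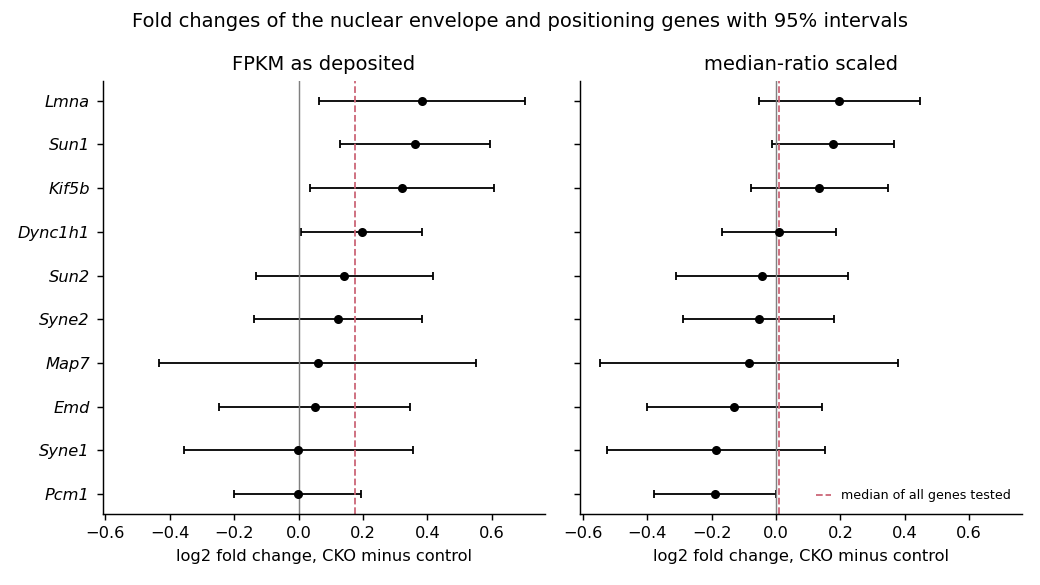
Log2 fold changes (CKO minus control) of the 10 genes with 95% intervals, from FPKM as deposited on the left and after median-ratio scaling on the right, with the all-gene median as a dashed line. On the left, the intervals of Lmna, Sun1, Kif5b and Dync1h1 lie above 0, and on the right all 10 intervals include 0.

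Ratios between partner genes were compared within each library, where the scaling of the library cancels except for the pseudocount of 0.1 FPKM, which weighs most on the scarce Map7. For 5 ratios, an exact permutation test was used and P adjusted over the 5. None passed. The log2 ratio of Sun1 to Sun2 was -0.99 ± 0.20 in controls and -0.77 ± 0.31 in CKOs (SD, n = 6 each), a difference of 0.22 (exact P=0.147, adjusted P=0.321). In 4 CKOs it lay above all controls, between -0.65 and -0.54, and in CKO 5 it lay below all controls at -1.28. Without CKO 5, the exact P was 0.0368 before adjustment. The ratio of Lmna to Emd was 2.20 ± 0.22 in controls and 2.53 ± 0.41 in CKOs, higher by 0.33 (exact P=0.0779, adjusted P=0.321). CKO 6 alone reached 3.30, and without it the difference was 0.18 (exact P=0.16). The exact P was 0.0411 without control 3 and 0.0173 without CKO 4.

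Neither pair of transport genes separated the groups. Kif5b relative to Dync1h1 was 0.79 ± 0.23 in controls and 0.91 ± 0.22 in CKOs (exact P=0.338, adjusted P=0.422). The log2 ratio of Map7 to its motor Kif5b was -5.43 ± 0.40 in controls and -5.69 ± 0.24 in CKOs, and 5 of 6 CKOs were below the control median (exact P=0.193, adjusted P=0.321). Without control 2, which had the lowest ratio, the difference was -0.38 (exact P=0.0411). With no pseudocount the difference was -0.24 (exact P=0.359), and with a pseudocount of 1 it was -0.29 (exact P=0.0325). The log2 ratio of Syne1 to Syne2 was 1.91 ± 0.22 in controls and 1.79 ± 0.31 in CKOs (exact P=0.472).

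**Figure D3:**
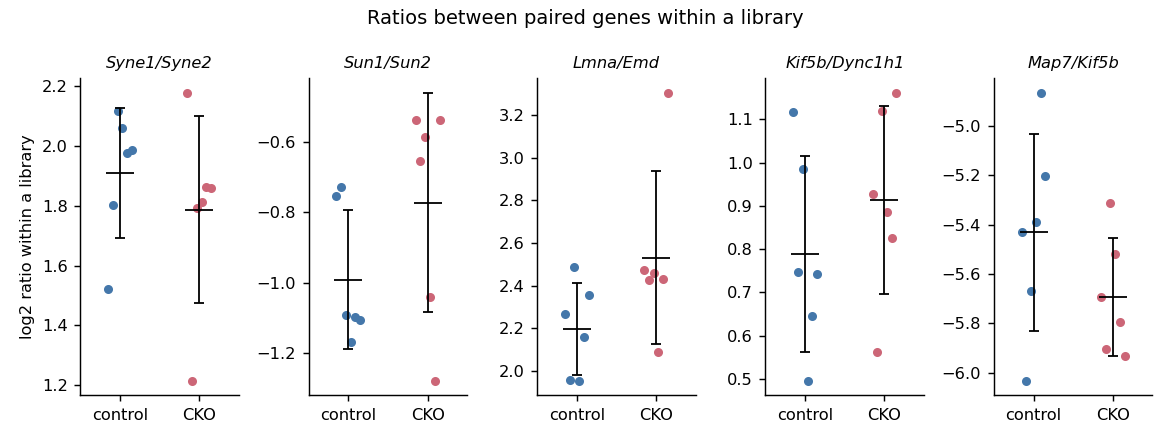
Log2 ratio within each library for 5 pairs of partner genes, with a dot for each mouse (blue, control; red, CKO), the group mean as a horizontal line and the SD as the error bar; each panel has its own axis. The groups overlap in all 5 panels, and CKO 6 stands at 3.30 in the panel of Lmna over Emd.

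Related genes were then examined in 7 lists with 152 tested genes in all. Each list is given by its counts beside the all-gene shares above, with no test of the list. The nuclear lamina and envelope list comprised 25 tested genes (Syne4 was below the filter), of which 5 were higher at an unadjusted P below 0.05 and none lower. Its median log2 fold change was 0.16, just under that of all genes, and 0.00 after scaling, when 1 gene was higher and 1 lower by the same cutoff. The higher gene was Tmem43 and the lower one Tor1aip1, named after its values were seen. Only Tmem43 rose at an adjusted P below 0.05. Tmem43 encodes LUMA, an inner nuclear membrane protein that binds emerin and lamins. It rose from 3.24 ± 1.11 FPKM in controls to 5.78 ± 0.904 FPKM in CKOs (log2 fold change 0.86, SE 0.176, adjusted P=0.0192), with 4 CKOs above every control. After median-ratio scaling the log2 fold change was 0.67 (adjusted P=0.0236). Control 1, at 5.39 FPKM, was the only control within the CKO range, and the other controls ran from 2.40 to 3.24 FPKM. The call was lost without control 2 or 5 or CKO 1 or 6, with a highest adjusted P of 0.0605. Lemd2, a LEM-domain protein of the same membrane, and Ankle2, which acts in rebuilding the envelope after mitosis, had log2 fold changes of 0.42 and 0.34 (adjusted P=0.14 and 0.152). The other two higher genes were Tmem38a (0.29) and Icmt (0.27), named after their values were seen.

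Nuclear pore genes gave no call after adjustment. Of 28 tested, 6 were higher at an unadjusted P below 0.05, and the median log2 fold change was 0.17, against 0.00 after scaling. Nup37 and Nup155, both scaffold nucleoporins, were higher by 0.54 and 0.43 (adjusted P=0.0898 and 0.108), and Aaas, the nucleoporin aladin, by 0.54 (adjusted P=0.117). After scaling, 2 genes of this list were higher and 2 lower at an unadjusted P below 0.05. These were Nup37 and Nup155, and Nup153 and Nup210, the lower pair being named after their values were seen.

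Among 19 tested kinesin-1 genes and microtubule-associated proteins, 6 were higher and 1 lower at an unadjusted P below 0.05, against 4 and 1 after scaling. Kif5a, Kif5c, Klc3 and Map7d2 were below the filter, so that of the kinesin-1 heavy chains only Kif5b was measurable. Macf1, a spectraplakin that links actin and microtubules, was 6.93 ± 1.08 FPKM in controls and 11.1 ± 3.06 FPKM in CKOs (log2 fold change 0.65, adjusted P=0.0436). Map4, the ubiquitous microtubule stabilizer, was 31.9 ± 1.89 FPKM in controls and 42.9 ± 5.65 FPKM in CKOs (0.42, adjusted P=0.0441). In both, 5 CKOs exceeded all controls. Neither call was kept after scaling, with adjusted P of 0.0983 for Macf1 and 0.321 for Map4. For Macf1 it was kept in 4 of the 12 fits with 1 library left out (without control 1 or CKO 2, 4 or 5), and for Map4 in 2 (without control 1 or CKO 2), with a highest adjusted P of 0.113 for each. Map1b was higher by 0.83 (adjusted P=0.0676). The lower gene was Clip1, which encodes the plus-end protein CLIP-170 and was named after its values were seen. It went from 49.6 ± 6.45 FPKM to 38.7 ± 6.27 FPKM (log2 fold change -0.36, adjusted P=0.13), and its adjusted P was 0.0477 after scaling.

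The dynein and dynactin list followed the shift of the median gene. Of 22 tested genes, 7 were higher and none lower at an unadjusted P below 0.05, none passed adjustment, and the median log2 fold change of 0.19 became 0.00 after scaling. On the scaled values 1 gene, Actr1a, was higher and 1, Dynll2, was lower at an unadjusted P below 0.05, Dynll2 being named after its values were seen. Actr1a encodes the actin-related protein of the dynactin filament, Bicd2 an adaptor that brings dynein to the nuclear pore, and Dctn4 a dynactin subunit. Their log2 fold changes were 0.41, 0.38 and 0.29, with adjusted P of 0.0564, 0.083 and 0.159. For Bicd2, all 6 CKOs (4.05 to 5.28 FPKM) lay just above all 6 controls (3.22 to 4.05 FPKM). Without control 1, 5 genes of this list passed adjustment, beside 8.4% of all genes.

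In the microtubule organizing center list, 2 genes were higher at an adjusted P below 0.05. Akap6 encodes mAKAP, the anchoring protein that nesprin-1 holds at the nuclear envelope of muscle cells, where it recruits centrosomal proteins. It rose from 5.43 ± 0.50 FPKM in controls (4.75 to 6.11) to 9.23 ± 1.65 FPKM in CKOs (7.21 to 11.2), and every CKO exceeded every control. The log2 fold change was 0.74 (SE 0.122, adjusted P=0.00636), and 0.55 after scaling (adjusted P=0.0473). The call held in all 12 fits with 1 library left out, with adjusted P from 0.00396 to 0.0217. Nin, which encodes the minus-end anchoring protein ninein, was 3.24 ± 0.496 FPKM in controls and 4.97 ± 0.853 FPKM in CKOs (0.60, adjusted P=0.0381), but the call was lost after scaling (adjusted P=0.111) and in 8 of 12 fits with 1 library left out (without control 2, 4, 5 or 6 or CKO 1, 3, 4 or 6). Tubgcp3, a gamma-tubulin complex gene, was higher by 0.41 (adjusted P=0.101). The other two of the 5 genes higher at an unadjusted P below 0.05 were Pcnt (0.28) and Akap9 (0.27), both nuclear-envelope scaffolds in muscle, named after their values were seen. None of the 25 tested genes was lower, and the list median was 0.21, or 0.04 after scaling, when 2 genes, Akap6 and Nin, were higher and none lower at an unadjusted P below 0.05.

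Genes that move myonuclei to the fiber edge or are linked to centronuclear myopathy formed a list of 23. Of these, 7 were higher and none lower at an unadjusted P below 0.05, and the median of 0.16 became -0.03 after scaling. The scaled counts were 5 higher and 2 lower, the lower pair being Fhod3 and Mkl2 and the higher genes Itgb1, Dnm2, Des, Bin1 and Mtm1, of which Fhod3, Mkl2, Bin1 and Mtm1 were named after their values were seen. Itgb1 encodes the integrin beta-1 subunit, a receptor for the extracellular matrix. It rose from 37.0 ± 7.87 FPKM to 60.0 ± 8.46 FPKM (log2 fold change 0.71, SE 0.134, adjusted P=0.0133), with every CKO above every control, though CKO 4 and control 1 were both at 51.4 FPKM. The log2 fold change was 0.52 after scaling (adjusted P=0.0118), and the call held in all 12 fits with 1 library left out. Dnm2, the GTPase dynamin-2 mutated in centronuclear myopathy, was 4.20 ± 0.491 FPKM in controls and 5.73 ± 0.606 FPKM in CKOs (0.44, adjusted P=0.046), and did not pass after scaling (adjusted P=0.217) or in 10 of 12 fits with 1 library left out, the exceptions being the fits without control 1 and without CKO 5. By real-time PCR of tibialis anterior RNA, the study reported no change in Dnm2, Bin1 or Mtm1. Des, the muscle intermediate filament desmin, was higher by 0.49 (adjusted P=0.0634). Des is also on the satellite cell marker list.

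Tubulins had the lowest median of the 7 lists, 0.05, or -0.13 after scaling, over 10 tested genes. At an unadjusted P below 0.05, 1 gene, Tuba1b, was higher and 1, Tuba4a, was lower. After scaling, 0 were higher and 1, Tuba4a, was lower. Tuba4a, the most abundant of the 3 named here, went from 61.4 ± 13.0 FPKM to 43.4 ± 13.3 FPKM, a log2 fold change of -0.55 (adjusted P=0.176), with 5 CKOs below every control. After scaling, the log2 fold change of Tuba4a was -0.74 (limma adjusted P=0.0887). Tuba1b (0.88, adjusted P=0.23) was under 0.8 FPKM in every library, and Tubb6 had a log2 fold change of 0.40 (adjusted P=0.408). The unadjusted call of Tuba1b was lost without control 2, 3, 4 or 6 or CKO 1, 2, 5 or 6.

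**Figure D4:**
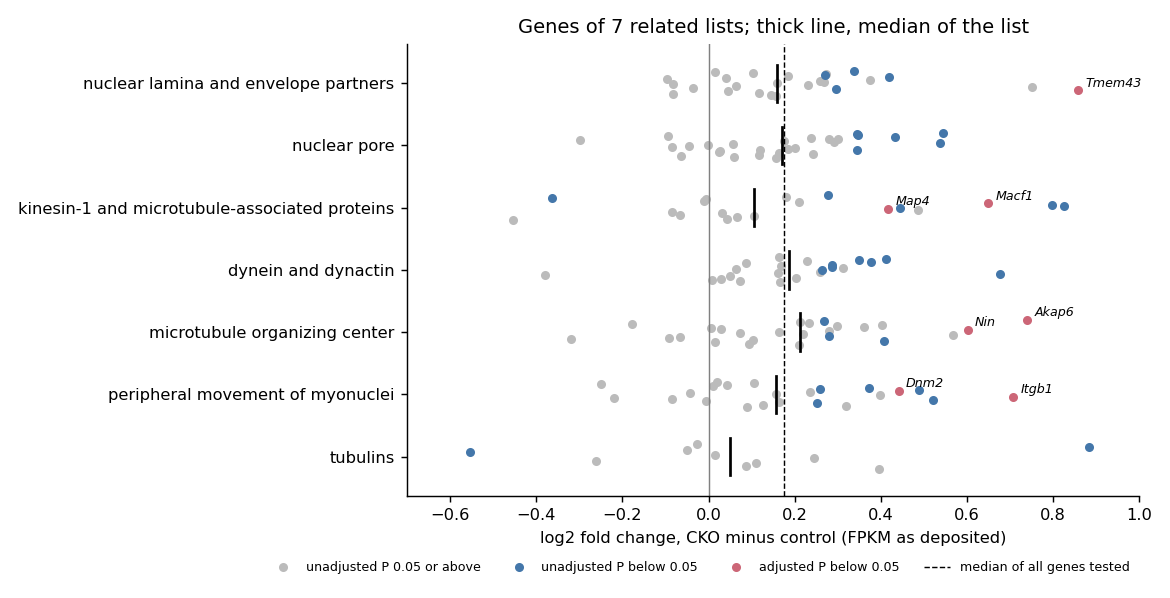
Log2 fold changes (CKO minus control, FPKM as deposited) of the tested genes in 7 related lists, with a dot for each gene colored by its P, a thick line for the list median and a dashed line for the all-gene median of 0.18. Genes with an adjusted P below 0.05 are named, and the medians of the lists lie between 0.05 and 0.21.

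The gene whose values were closest to Sun1 over the 12 libraries was Ckap5, which encodes the microtubule polymerase ch-TOG. Closeness was measured as the root mean square difference of log2(FPKM + 0.1), each gene centred on its mean, and was 0.0653 for Ckap5, 0.0775 for Gabpb2 and 0.0859 for Bclaf1, against a median of 0.338 over 12685 genes. Ckap5 was 5.46 ± 0.391 FPKM in controls and 7.24 ± 0.778 FPKM in CKOs. The libraries share depth and scaling, so genes with a small spread lie close to each other by this measure. It also includes the difference between the groups, so genes with a like difference lie close. The log2 fold changes were 0.36 for Sun1, 0.40 for Ckap5, 0.35 for Gabpb2 and 0.31 for Bclaf1.

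Slow-fiber genes, which include the myosin and troponin genes of slow and cardiac muscle, varied widely among the CKOs. The summed FPKM of 10 such genes ran from 93.2 to 209.9 in controls, and was 432, 172, 430.5, 173, 122 and 660.4 in CKOs 1 to 6. In the same order of mice, Lmna was 15.9, 11.9, 14.1, 10.5, 12.8 and 18.8 FPKM. CKO 6 was thus the highest mouse for both, and among the CKOs, 1, 3 and 6 were high for both. Kif5b was 27.3, 19.1, 25.8, 22.1, 23.0 and 32.0 FPKM in CKOs 1 to 6, with the same 3 mice above the highest control. Sun1 was 7.11, 5.28, 6.50, 5.87, 5.21 and 6.63 FPKM, also highest in these mice, with CKO 4 above the highest control as well. Dync1h1 was 14.3, 12.9, 11.8, 11.9, 12.9 and 14.2 FPKM, high in CKOs 1 and 6 but lowest in CKO 3. Sun2 went otherwise, at 10.4, 8.37, 9.80, 12.2, 12.8 and 9.66 FPKM. Syne1 and Map7 were also highest in CKOs 1, 3 and 6, but Syne2, Emd and Pcm1 were not. Among controls, control 2 had the highest slow-fiber sum (209.9 FPKM) but the lowest Lmna (8.49 FPKM) and Kif5b (17.5 FPKM). Control 3 had the lowest sum (93.2 FPKM), with Kif5b at 23.3 FPKM, above all controls but control 1. Control 1, with a sum of 177.8 FPKM, was the highest control for Lmna (14.6 FPKM) and Kif5b (24.9 FPKM). These values describe 6 mice per group whose libraries share their scaling, and carry no test.

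**Figure D5:**
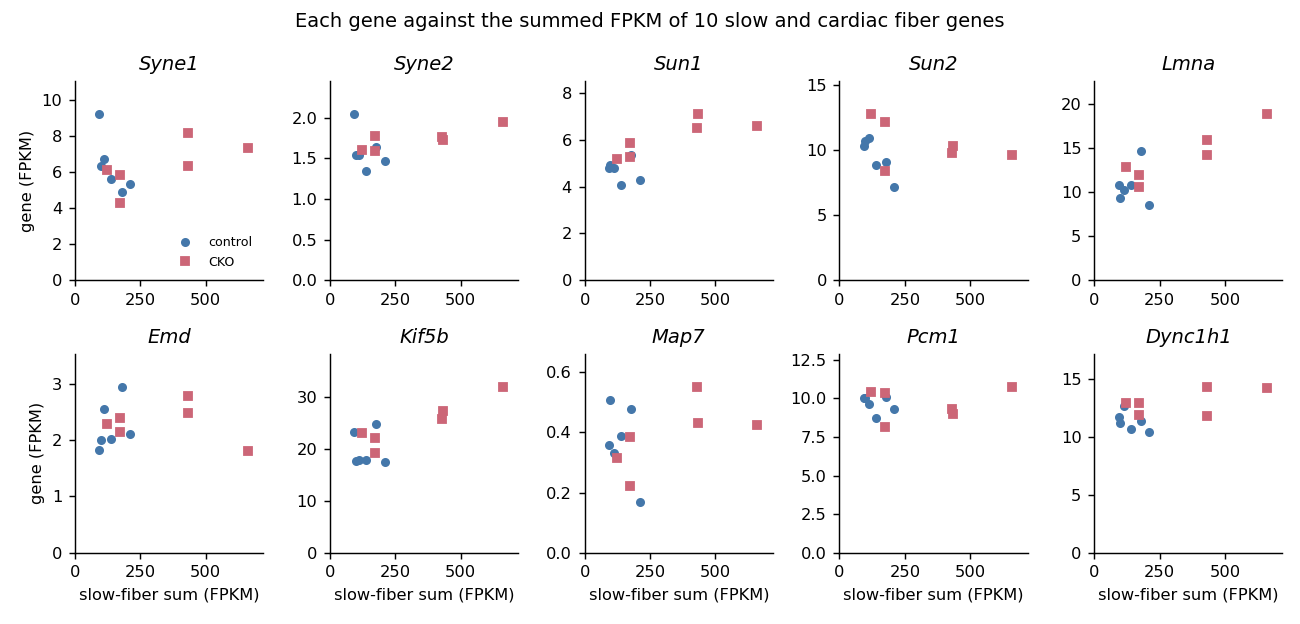
FPKM of each of the 10 genes (vertical axes, from 0) against the summed FPKM of 10 slow and cardiac fiber genes (horizontal axes), with controls as circles and CKOs as squares. The 10 summed genes include Myh2, a myosin gene of fast type IIa fibers. The square farthest to the right is CKO 6, with a sum of 660.4 FPKM, where Lmna was 18.8 and Kif5b 32.0 FPKM, and all controls lie at or below 209.9 FPKM.

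Markers of other cells moved with the groups for some types. On the deposited scale, 8 of 10 slow and cardiac fiber genes and 7 of 8 satellite cell genes were higher in CKOs at an unadjusted P below 0.05, and none of either list was lower or passed adjustment. Over all genes, 18.1% were higher and 1.76% lower by that cutoff, the shares beside which the deposited-scale counts below stand. Without control 1, when 27.0% of all genes were higher at an unadjusted P below 0.05, 6 of 8 satellite cell genes were higher and 4 of them passed adjustment. Summed satellite markers were 209.8 to 256 FPKM in controls and 236 to 390.3 FPKM in CKOs. Des, the desmin gene, made up most of these sums, at 205 to 247 FPKM in controls and 227 to 381 FPKM in CKOs. Desmin is also a protein of myofibers, so the sums do not measure satellite cells alone. Fibroblast markers were higher in 3 of 9 (277 to 1027 FPKM against 405 to 618 FPKM), and without control 1 in 8 of 9. Macrophage and leukocyte markers were higher in 0 of 10 (13.5 to 53.0 against 18.0 to 32.5 FPKM), and without control 1 in 8 of 10. Endothelial markers were called in 0 of 9 (39.3 to 55.3 against 38.9 to 65.6 FPKM). Schwann cell markers were higher in 3 of 7, adipocyte markers in 2 of 4, smooth muscle and pericyte markers in 1 of 7 and erythroid markers in 0 of 4, and tenocyte markers were lower in 1 of 6. Of 9 myofiber markers, 2 were higher and 1 lower. After median-ratio scaling, 7 slow and cardiac fiber genes were higher and 1 lower, 4 satellite cell genes, 1 fibroblast gene and 1 adipocyte gene were higher, 2 tenocyte genes were lower, and 2 myofiber genes were higher and 4 lower. The other 5 lists, Schwann cell markers among them, had 0 genes called on that scale. Over all genes, 6.62% were higher and 7.44% lower after this scaling, at an unadjusted P below 0.05. No marker was at 0 in all 12 libraries. The part of these cells in the values of the 10 genes was not tested.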

How the data were processed

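RNA from the tibialis anterior of 12 mice was sequenced by the authors after ribosomal RNA depletion (ScriptSeq Complete Gold). The authors kept uniquely placed reads from bowtie2 and tophat (mismatch limit 2). Per the labels, TopHat2 2.0.10, Cufflinks 2.1.1 and mm9 were used; the annotation is not given in the sources used here. The deposited values are FPKM per gene symbol, computed by the authors with cufflinks, so depth in reads and intervals that need counts are unknown. The authors' own test, DESeq on counts, was not repeated.

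Each table held 23950 rows, of which 27 whose symbols had become dates were left out. FPKM were converted to log2(FPKM + 0.1), and the 12695 genes reaching 0.1 FPKM in 6 or more libraries were tested. Fold changes are on that scale and understate low genes. CKOs and controls were compared with limma 3.58.1 (R 4.3.3, trend, no covariates), Benjamini-Hochberg over all genes tested, and with exact two-sided permutation tests. Scripts were tested on simulated data. Groups and replicate numbers came from the sample titles and genotypes. P-values measure the spread between mice.

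Alternatives were the pseudocount, the filter, median-ratio scaling, quantile normalization, correction for transcript length and GC content (GENCODE M21, GRCm38, 98.6% of genes matched), no trend, sample weights, the replicate number as a block, and each library left out. Median-ratio scaling with control 1 left out was added after seeing the data. Named genes are the 10 genes, Smyd1, the 3 smallest P of each related list, and the 3 genes closest to Sun1, the gene of the 10 with the smallest P. The genes and lists were chosen with earlier results of these data known. No sequence is printed.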

Additional observations from a re-analysis of the deposited data

Results flagged for a closer look

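In 74 groups of 6 mice, Dixon's test was used to look for a mouse far from the others of its group, and 5 passed its critical value of 0.625. Chance passes about 1 in 20 groups. The log2 ratio of Lmna to Emd was 3.30 in CKO 6, against 2.09 to 2.47 in the other CKOs. The other 4 were all in control 1. Tmem43 was 5.39 FPKM there (2.40 to 3.24 FPKM in the other controls), Lemd2 1.78 FPKM (1.34 to 1.48), Tuba4a 86.8 FPKM (53.3 to 63.2) and Tubb6 3.82 FPKM (1.61 to 2.31). The same library had the summed FPKM and the fibroblast and leukocyte marker levels that stood apart, and what part these had in the 4 values was not tested.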

How the results depend on the processing

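The counts of calls depended on the scaling of the libraries, on control 1 and on sample weights. In the limma fit of the deposited FPKM, the counts of higher and lower genes were 257 and 34 by adjusted P, and 2300 and 224 by unadjusted P. Median-ratio scaling gave 97 and 90 (841 and 944 unadjusted), quantile normalization 101 and 68 (810 and 837), and the length and GC correction 99 and 91 (802 and 1003). Median-ratio scaling without control 1 gave 180 and 182 (1100 and 1146). Without the filter, 170 genes were higher at an adjusted P. Sample weights gave 1400 higher and 115 lower, with 3704 higher unadjusted. The exact permutation test gave 0 and 0 adjusted calls (2284 and 211 unadjusted). Leaving out 1 library gave 84 to 1067 higher and 18 to 69 lower at an adjusted P, the highest of both without control 1 and the lowest without CKO 1. The shares of higher calls are thus those of the deposited scale.

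Of the 10 genes, 3 were higher at an adjusted P with sample weights (Sun1, Lmna and Kif5b), and 0 to 2 with 1 library left out (2 without control 1). At an unadjusted P, 4 were higher on the deposited scale, 0 with median-ratio scaling, with or without control 1, 0 with the length and GC correction, and 1 with quantile normalization (Sun1). With 1 library left out the count ran from 1 to 4, and it was 1 without control 2, CKO 1 or CKO 6. Lower at an unadjusted P were 0 on the deposited scale, 1 with the length and GC correction (Pcm1) and 2 with median-ratio scaling without control 1 (Pcm1 and Syne1). The cause of these differences was not tested.

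Signs of log2 fold changes near 0 turned. Under median-ratio scaling, quantile normalization, the length and GC correction, and median-ratio scaling without control 1, in that order, Syne2 was -0.054, -0.077, -0.10 and -0.088, Emd -0.13, -0.14, -0.13 and -0.095, and Map7 -0.084, -0.15, -0.14 and -0.053. Leaving aside quantile normalization, Sun2 was -0.044, -0.060 and -0.099. With the length and GC correction and with median-ratio scaling without control 1, Dync1h1 was -0.042 and -0.034. Syne1 was 0.017 with sample weights. With 1 library left out, Syne1 ran from -0.077 to 0.11, Emd from -0.0031 to 0.13, Map7 from -0.093 to 0.17 and Pcm1 from -0.034 to 0.044. Sun1, Lmna and Kif5b stayed positive under every alternative run. Map7 had no value with a filter at 1 FPKM.

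The log2 ratio of Map7 to Kif5b was -0.29 with a pseudocount of 1 (exact P=0.0325), -0.24 with none (exact P=0.359), and -0.38 to -0.15 with 1 library left out. The ratio of Lmna to Emd ran from 0.18 to 0.42, and that of Sun1 to Sun2 from 0.17 to 0.32. The replicate number as a block gave 272 higher and 40 lower genes at an adjusted P, and 3 of the 10 genes higher at an unadjusted P. Deviations of mice with the same number had a mean correlation of 0.04 (range -0.09 to 0.16 over 6 pairs), against -0.0088 for mice with different numbers. Numbers 4 and 5 alone matched best with themselves. With 6 pairs and correlations this small, whether the numbers pair the mice cannot be decided. Among the related genes, Akap6 and Itgb1 kept their adjusted calls in every limma alternative.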
